A study of Drosophila melanogaster with 60 samples.

Results

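RNA polymerase II (RNAPolII) occupancy was compared between brains of isolated male flies (SH) and group-housed male flies (GH) over 5 genotypes of Drosophila melanogaster, with 1 common housing effect and genotype as a blocking factor. The comparison took every RNAPolII library of the study, 15 SH and 15 GH, which is 30 of its 60 libraries. The other 30 used an antibody to H3K4me3, a histone mark of active gene starts, and are given here only beside the polymerase values. In each genotype 3 libraries came from SH males and 3 from GH males, and each RNAPolII library pooled 30 dissociated brains, so no value belongs to a single fly or a single cell type. The genotypes were Canton-S (CS), the wild type; Or47bmut, w+/Y with Or47b2/3; Or67dmut, w+/Y with Or67dGAL4/GAL4; frumut, w+/Y with fruLexA/4-40; and dsxmut, w-/Y with dsxf00683-d07058/f01649-d09625. Each mutant allele was present in both its SH and its GH flies. The sources used here do not give the flies' age, how long they were isolated or how many made up a group. All brains were treated with collagenase before CUT&RUN, in which an antibody-tethered nuclease releases the DNA around its target for sequencing.

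RNA polymerase II transcribes all protein-coding genes, and much of it sits just past gene starts until it is released into the gene body. Occupancy in a brain therefore reports where polymerase is loaded or held, not how much mRNA is present. Genes that neurons switch on within minutes of firing, such as the nuclear receptor gene Hr38 and the EGR family gene sr (stripe), are used in flies as records of recent neuronal activity. Or47b and Or67d encode odorant receptors for pheromones, and fru and dsx encode the transcription factors that give male neurons their sexual identity.

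No RNAPolII peak passed the test of the common housing effect. Of 21113 peaks, 21076 were tested, those whose value averaged 10 or more over the 30 libraries, and 0 passed an adjusted p of 0.05 in limma (percent called 0). At an unadjusted p under 0.05 there were 726 peaks (3.44%), of which 332 were higher in SH (1.58%) and 394 lower (1.87%). The lowest unadjusted p was 0.000144, and the lowest adjusted p was 0.9997. Whole reads could be recovered from the deposited values of 28 libraries, 100% of values coming within 0.01 of a whole number. On those reads edgeR called 0 peaks (697 at an unadjusted p under 0.05) and DESeq2 called 0 (703). A peak's value depends on the number of cells with polymerase there and on the amount per cell, and bulk brains cannot tell fewer cells of a type from less polymerase per cell.

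The measurement bounds how large a shared effect could be at a peak, relative to the other peaks. Reads were divided by 1 size factor per library, so a change common to all peaks may not show. The 95% intervals are per peak, without adjustment over all tested peaks. Log2 changes had a median SE of 0.085, and the median half-width of its 95% interval was 0.172. The whole interval lay within 0.5 of 0 on the log2 scale at 19339 peaks (91.8%), within 0.25 at 11685 (55.4%) and within 1 at 21070. The point estimates ran between -0.63 and 0.65, with 25 peaks past 0.5 in size and 0 past 1. Precision followed signal. Among the 6834 peaks with a mean value over 200, 93.8% of intervals lay within 0.25, and the estimates ran only between -0.28 and 0.16. Among the 7166 peaks with means of 10 to 50, 4.94% of intervals did so.

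**Figure D1:**
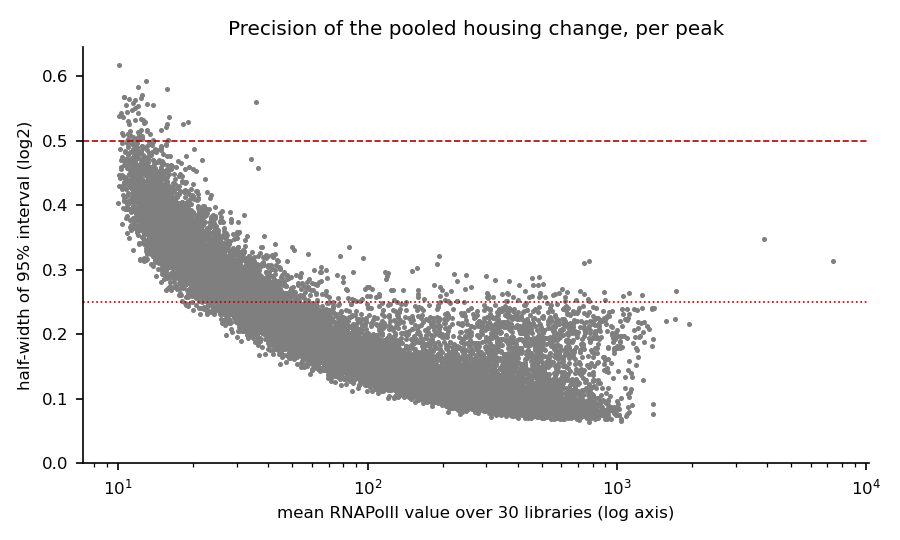
Half-width of the 95% interval of the pooled log2 change (SH minus GH) against mean RNAPolII value over the 30 libraries (log axis), with 1 point per tested peak. The dashed line marks 0.5 and the dotted line 0.25, and the intervals narrow toward the strong peaks, where 93.8% of those with a mean over 200 lay within 0.25 of 0.

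Genotype accounted for 27.9% of the sum of squares over all peaks with 13.8% of the degrees of freedom, and housing for 2.64% with 3.45%. The interaction of the pair took 10.6% with 13.8%. Libraries of the same genotype correlated with a median r of 0.972 across housings (45 pairs) and 0.973 within a housing (30 pairs), and libraries of different genotypes across housings with a median of 0.964 (180 pairs). These correlations are over peaks, which libraries share, and carry no test. Reads in peaks ranged between 3007711 and 6459322 per library. Or47bmut GH 3, Or47bmut SH 3 and Or67dmut GH 3 stood apart, with summed values over the tested peaks of 4115870 to 4152570, against 3585670 to 3848850 in the other 27. Their spread between strong and weak peaks, the difference in median log2 value between the strongest 25% and the weakest 50% of peaks, was 3.67 to 3.70, against 3.39 to 3.68 in the others, so values without them are given below where they bear on a result. By housing this spread was 3.52 ± 0.09 in SH and 3.52 ± 0.09 in GH (SD, n = 15 each, permutation p = 0.89, two-sided, adjusted p = 0.94 over 8 library measures). As a check of tissue, the 8 neuronal marker genes had a median of 165 RNAPolII units per kb in SH and 169 in GH at their densest peaks, against 55.8 and 55.7 for all genes. Glial markers had 50.9 in SH and 50.6 in GH, and muscle markers 48.4 in SH and 45.1 in GH. The summed values of the neuronal markers ran between 12154 and 20861 in SH, against 12302 and 21003 in GH. The photoreceptor genes ninaE, Rh6, chp and ninaC and the hemocyte gene He had no tested peak.

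The peak with the lowest p over a gene lay in sr, which encodes a zinc-finger transcription factor of the EGR family. At 3R from 18118742 to 18119634 it had a lowest, median and highest value of 17.5, 30.8 and 38.3 in SH, against 24.96, 39.7 and 54.6 in GH. All 15 SH libraries lay below the GH median, although the ranges overlapped. Peaks named by their p or change were picked from these same values, so such counts are no separate support for them. The pooled log2 change was -0.53 (95% interval -0.78 to -0.28, p = 0.00015, adjusted p = 0.9997, limma, n = 15 each). It was below 0 in every genotype, between -0.76 in Or67dmut and -0.33 in Or47bmut. Without the 3 libraries that stood apart it was -0.55.

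The peak at 2L from 20711815 to 20712195 lies over Hr38, an NR4A family nuclear receptor gene, and over the noncoding gene lncRNA:CR44188. It held 25.04, 30.4 and 40.2 in SH, against 19.8, 42.9 and 83.6 in GH. The 15 SH libraries again all lay below the GH median, and the GH libraries spread far more widely (SD 4.53 in SH and 18.1 in GH). The log2 change was -0.49 (interval -0.77 to -0.21, p = 0.0011, adjusted p = 0.9997, limma, n = 15 each). The estimates differed in size among the genotypes. They were -0.96 in Or47bmut, -0.95 in Or67dmut, -0.53 in dsxmut and -0.19 in frumut, and 0.19 in CS. The unadjusted p of the genotype by housing interaction there was 0.023, which did not pass adjustment over all peaks. In CS the values were 30.1, 31.0 and 36.1 in SH, against 19.8, 32.1 and 35.2 in GH, and overlapped. In Or47bmut they were 26.6, 37.8 and 35.2 in SH, against 76.5, 56.9 and 62.3 in GH. Without the 3 libraries that stood apart the pooled change was -0.39.

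Among the other 8 of the 10 lowest-p peaks below 0, pan, the TCF factor of Wnt signalling on chromosome 4, had a mean of 43.2 ± 8.8 in SH and 59.2 ± 12.5 in GH (SD, n = 15 each, log2 change -0.45). It was below 0 in each genotype, with 14 of 15 SH libraries under the GH median. The memory gene rsh (radish) had 37.6 ± 6.4 in SH and 48.6 ± 8.7 in GH (-0.36), also below 0 in each genotype. A peak in para, the voltage-gated sodium channel gene, showed -0.63 on low values of 11.4 ± 4.5 in SH and 17.9 ± 5.8 in GH. This is 1 of 25 tested peaks along para, of which 19 were below 0 and 7 were lower at an unadjusted p under 0.05. The strongest para peak had 550 in SH and 572 in GH. By each gene's strongest peak, no neuronal marker gene, para among them, had a log2 change below -0.0446. A peak over CrebB, the fly CREB gene, and lncRNA:CR43686 held 12.5 ± 5.2 in SH and 18.5 ± 4.7 in GH (-0.60), whereas the strongest CrebB peak had a change of -0.06. The remaining peaks lay over CG3168 (-0.38), heph and CG2003 (-0.21), l(1)G0196 and lncRNA:CR43493 (-0.31) and rumpel (-0.34). heph encodes a polypyrimidine tract binding protein, and rumpel a sodium-coupled transporter of glia. The adjusted p of each of these 8 was 0.9997 in limma.

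The 10 lowest-p peaks above 0 were led by the noncoding gene lncRNA:CR45303, at 2L from 14497073 to 14500312. It had 96.8, 121 and 160 in SH (lowest, median, highest), against 76.0, 102 and 116 in GH. 1 SH library lay below the GH median, and the ranges overlapped. Its log2 change was 0.26 (interval 0.12 to 0.39, p = 0.00047, adjusted p = 0.9997, limma, n = 15 each), above 0 in each genotype between 0.08 and 0.41. Cda4, a chitin deacetylase gene, had 20.7 ± 4.7 in SH and 14.9 ± 3.6 in GH (0.46), and Pzl, a relative of the mechanosensitive channel gene Piezo, 22.8 ± 5.1 in SH and 16.6 ± 6.8 in GH (0.50). Both were above 0 in each genotype, as were CARPB (0.33), CG5172 (0.45) and the peak over mud and its antisense gene asRNA:CR46473 (0.30). mud acts in spindle orientation, and whether reads there belong to it or to the antisense gene cannot be told without strand. dpr12, which encodes an immunoglobulin protein of neuronal surfaces, had 66.5 ± 11.2 in SH and 54.2 ± 9.0 in GH (0.29), and was below 0 in dsxmut (-0.19). The others were the peak over Sgs3 and CG7512 (0.16), Haspin, a histone H3 kinase gene (0.48), and lncRNA:CR44999 (0.37). No adjusted p was under 0.9997.

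**Figure D2:**
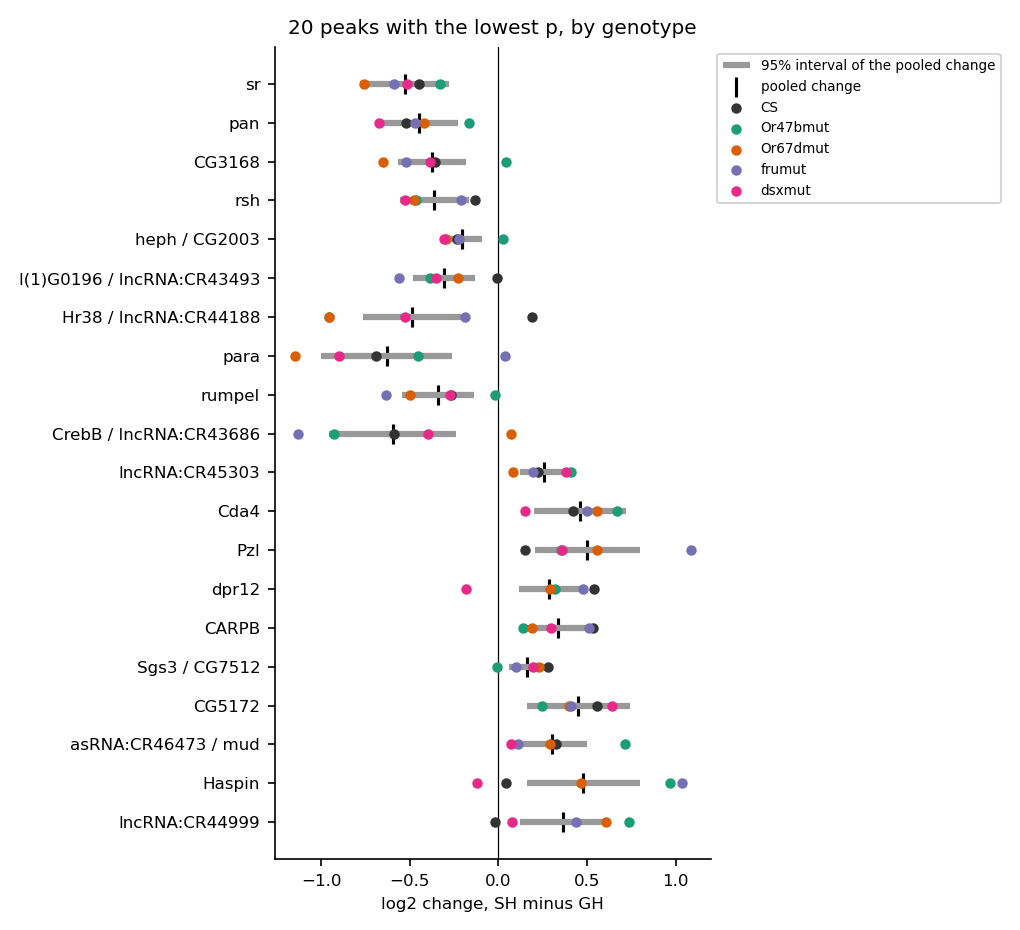
Log2 change (SH minus GH) at the 20 peaks with the lowest p, 10 below and 10 above 0, labelled by gene. Grey bars are 95% intervals of the pooled change, black ticks the pooled change and coloured points the change within each genotype (3 SH and 3 GH libraries). At Hr38 the Or47bmut point lies under that of Or67dmut. The 5 points of sr and of pan all lie below 0, and Hr38 has CS above 0 and the 4 mutants below.

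The housing effect was asked for in each genotype too. The same sign in all 5 genotypes was found at 1250 peaks (5.93%), 681 of them below 0 (3.23%) and 569 above (2.7%). Within a genotype limma called 0 peaks in each, and the share at an unadjusted p under 0.05 was 3.47% in CS, 3.27% in Or47bmut, 3.05% in Or67dmut, 3.54% in frumut and 4.2% in dsxmut. The interaction called 0 peaks, with 609 (2.89%) at an unadjusted p under 0.05. The lowest interaction p was 0.00055, at CG14535. Its change was 0.77 in Or67dmut and 0.41 in frumut, and -0.50 in Or47bmut. Among the next 5 were shakB, a gap junction innexin gene, with 0.73 in dsxmut and -0.91 in frumut, and the peak over Cph and lncRNA:CR44357, with 0.65 in CS and -0.72 in dsxmut. CG7432, CG32683 and CG11658 were the others, and the lowest adjusted p was 0.999997 in limma.

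The list of activity-regulated genes held 18 names, of which 17 were matched and 16 had a tested peak. It was chosen with earlier results of these data known. Taking the strongest peak of each gene, 0 of 16 were called and 13 were below 0, with a median log2 change of -0.06, against 0.00 over all 13221 genes with a peak (47.0% below 0). CG46385 was the 1 member at an unadjusted p under 0.05, beside 2.1% of all genes. Over all 106 peaks on these genes, 75 were below 0 (70.8%, against 51.9% of all peaks) and 12 were lower at an unadjusted p under 0.05, a share of 11.3% beside 1.87% of all peaks. 1 was higher. Similar shares were found outside this list. Over the 63 peaks on the neuronal markers, 43 were below 0 (68.3%) and 8 were lower at an unadjusted p under 0.05 (12.7%), 7 of them in para and 1 in cpx, a complexin gene of transmitter release, and 1 was higher. Peaks below 0 made up 73.9% on translation and growth control genes (34 of 46), 68.2% on clock genes (45 of 66) and 67.6% on glial markers (23 of 34), with 0 lower at an unadjusted p under 0.05 in these 3 lists. The part of the neuronal markers in the activity-regulated counts was not tested. Without the 3 libraries that stood apart the counts were 66 below 0 and 16 lower, with 2.07% of all peaks lower in that fit. With each genotype left out in turn, between 9 and 15 were lower, beside 1.52% of all peaks without CS (15 on the list), 2.66% without Or47bmut (15), 1.83% without Or67dmut (14), 1.61% without frumut (11) and 1.83% without dsxmut (9). Peaks of 1 gene share its polymerase, so they are not independent of each other, and the values describe these libraries only.

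4 genes held 10 of those 12 peaks, and they were singled out after their values were seen. Together sr, Hr38, CG14186 and CG46385 had 35 tested peaks, with 31 below 0 and a median of -0.11. The other 71 peaks of the list had 44 below 0, 2 lower and 1 higher at an unadjusted p under 0.05, and a median of -0.02. All 7 Hr38 peaks were below 0 and 4 had an unadjusted p under 0.05. For sr the counts were 12 of 14 below 0, and 4.

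The strong Hr38 peak at 2L from 20704492 to 20706961 had the lowest change of all 6834 peaks with a mean over 200. It held 376, 520 and 961 in SH (lowest, median, highest), against 463, 583 and 1589 in GH, with 11 SH libraries under the GH median and wide overlap. The log2 change was -0.28 (interval -0.55 to -0.02, p = 0.037, adjusted p = 0.9997, limma, n = 15 each). It was -0.43 in Or67dmut, -0.41 in Or47bmut, -0.32 in dsxmut, -0.22 in frumut and -0.03 in CS. The highest libraries here were Or67dmut GH 3 and Or47bmut GH 3, and leaving out the 3 libraries that stood apart gave -0.17, a move of over 1.5 times. The strong sr peak at 3R from 18121044 to 18122561 held 288, 345 and 726 in SH, against 333, 397 and 991 in GH. Its change was -0.21 (interval -0.48 to 0.05), below 0 in each genotype, and -0.12 without those 3 libraries, also a move of over 1.5 times. The Hr38 peak at 2L from 20713061 to 20715400 had 610 ± 144 in SH and 678 ± 268 in GH, a change of -0.11 with an interval of -0.34 to 0.12. Off the activity-regulated list, the strong peak over asRNA:CR45104 and CG14315, at 3R from 18158756 to 18160939, had a change of -0.27 (p = 0.0070, adjusted p = 0.9997, limma, n = 15 each). Without those 3 libraries its change was -0.20. This peak lies near sr, which has a peak at 3R from 18129229 to 18133010. Also off the list, the 4 peaks of the mitochondrial genome, described below, had changes between -0.28 and -0.25.

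CG14186 had 1 weak and 1 strong peak. The weak peak, at 3L from 20097308 to 20098873, held 40.3, 60.4 and 93.3 in SH, against 52.6, 76.6 and 181 in GH. 14 of 15 SH libraries lay below the GH median. The change was -0.39 (interval -0.64 to -0.14, p = 0.0029, adjusted p = 0.9997, limma, n = 15 each), below 0 in each genotype, and -0.30 without the 3 libraries that stood apart. The strong peak, which also lies over lncRNA:CR44679, had 1139 ± 250 in SH and 1314 ± 402 in GH. Its change was -0.19, and -0.11 without those 3 libraries, a move of over 1.5 times.

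CG46385 had 10 of 12 peaks below 0. At 2R from 7763414 to 7769205 the values were 379, 445 and 584 in SH, against 416, 517 and 848 in GH, with 11 SH libraries below the GH median. The change of -0.23 (interval -0.39 to -0.06, p = 0.0078, adjusted p = 0.9997, limma, n = 15 each) was below 0 in each genotype, between -0.46 in Or67dmut and -0.03 in CS. Without the 3 libraries it was -0.16. The peak at 2R from 7744241 to 7745760 had 348 ± 112 in SH and 417 ± 141 in GH, a change of -0.25.

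**Figure D3:**
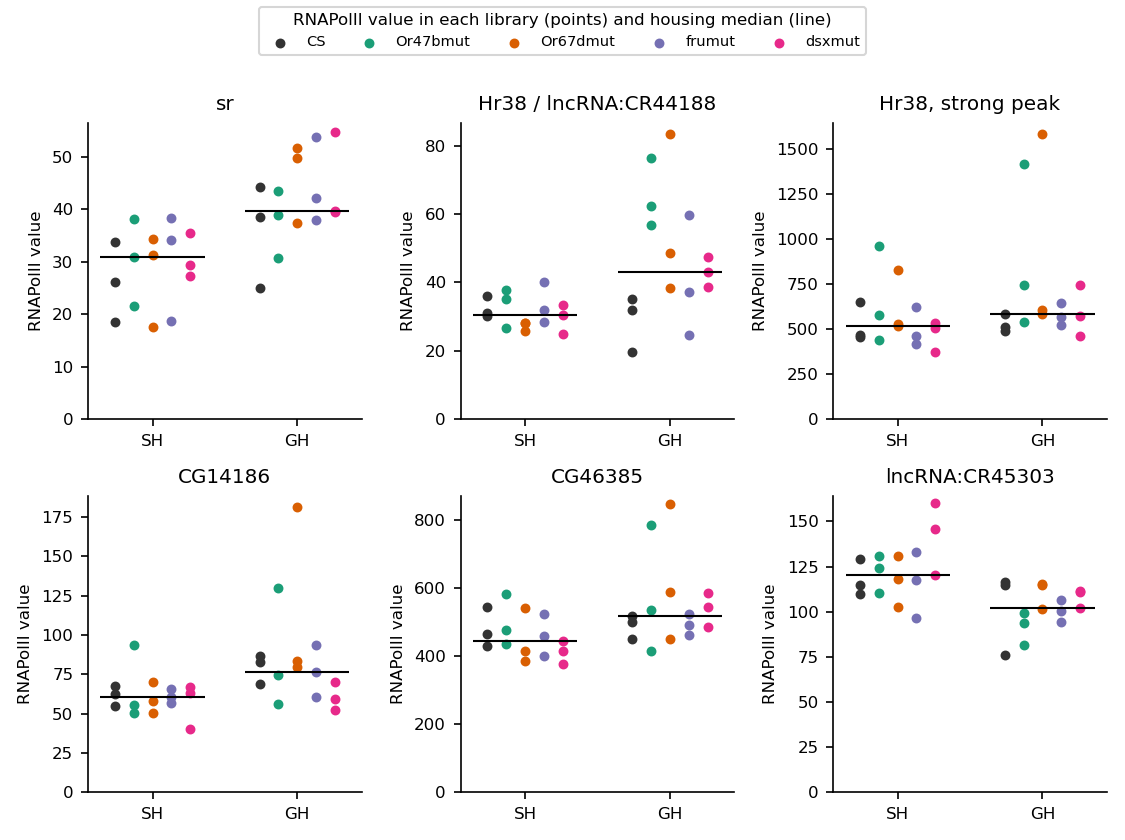
RNAPolII value of each library at 6 peaks, SH left and GH right, with 1 point per library coloured by genotype and a line at the median of the 15 libraries. The sr peak and both Hr38 peaks have lower SH than GH medians, and lncRNA:CR45303 has a higher SH median, with ranges that overlap in every panel.

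Summed over its 14 peaks, sr had 2074 ± 150 in SH and 2291 ± 291 in GH, a log2 change of -0.14 with p = 0.0042, the 18th lowest among 13221 genes (adjusted p = 0.998, limma, n = 15 each; 0 genes called, 364 or 2.75% at an unadjusted p under 0.05). The sum for Hr38 was 1821 ± 275 in SH and 2101 ± 624 in GH (-0.17). That for CG14186 was 1200 ± 258 in SH and 1398 ± 432 in GH (-0.20). For CG46385 it was 2538 ± 263 in SH and 2753 ± 393 in GH (-0.11). By p they ranked 387, 358 and 383, with only CG14186 at an unadjusted p under 0.05. For each of these genes and sr, Or67dmut GH 3 and Or47bmut GH 3, which stood apart, had the highest sums. For Hr38 these were 3705 and 3410, against up to 2256 in the other GH libraries. Or47bmut SH 3, which also stood apart, had the highest SH sums. Sums without these libraries were not fitted. In genotypes without them, Hr38 had 0.07 in CS, -0.11 in frumut and -0.18 in dsxmut. Other activity-regulated genes lay closer to 0. The sums of kay, the fly Fos gene, had a change of 0.00, of Jra, the Jun gene, -0.05, of CrebA -0.05 and of Mef2 0.00, a muscle and neuron factor gene. Each was within the spread between libraries. cbt had no tested peak.

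H3K4me3 was measured in separate libraries of the same groups, each from 15 pooled brains. Of 14513 tested H3K4me3 peaks 0 were called, with 820 (5.65%) at an unadjusted p under 0.05, 282 higher (1.94%) and 538 lower (3.71%), and the lowest p belonged to CG46385 and the next to sr. At 2R from 7743598 to 7745770, CG46385 had 219, 279 and 340 in SH, against 273, 339 and 395 in GH, a log2 change of -0.29 (p = 2.0e-05, adjusted p = 0.29, limma, n = 15 each). At 3R from 18121279 to 18124246, sr had 204, 232 and 306 in SH, against 233, 274 and 364 in GH, a change of -0.27 (p = 0.00011, adjusted p = 0.51, limma, n = 15 each). In each, 14 of 15 SH libraries lay below the GH median. Whether they passed depended on the settings of the fit. With quantile normalization their adjusted p were 0.00016 for CG46385 and 0.0037 for sr, and sty and Mkp3, genes of inhibitors of receptor tyrosine kinase signalling, also passed, each lower in SH (-0.29 and -0.18). With that spread of each library as a covariate, CG46385, sr and sty passed. Hr38 had -0.17 at its strongest H3K4me3 peak (unadjusted p = 0.015, n = 15 each) and 0.14 at the mark's peak under the strong polymerase peak. CG14186 had -0.26 (unadjusted p = 0.031, n = 15 each). Adjusted p for these was 0.85 in limma. Over the 16 activity-regulated genes with an H3K4me3 peak, the strongest peaks had a median change of 0.037, against 0.033 over all genes. Of them 4 were lower and 0 higher at an unadjusted p under 0.05, beside 236 lower and 144 higher of 9504 genes. Over all 67 H3K4me3 peaks of the list the median was -0.02, against 0.01 over all peaks. All 3 CrebB peaks of the mark were above 0 (0.06 to 0.20).

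**Figure D4:**
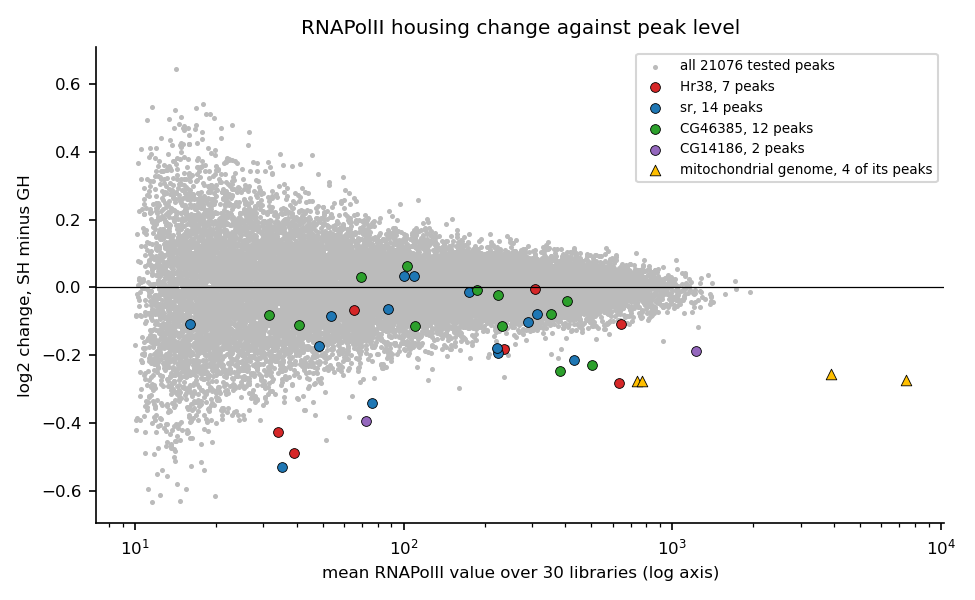
Log2 change (SH minus GH) against the mean RNAPolII value over 30 libraries (log axis). Grey points are all 21076 tested peaks, coloured points the 35 peaks of Hr38, sr, CG46385 and CG14186, and triangles the 4 peaks of the mitochondrial genome. Of the coloured points 31 lie below 0, and a few of them and the triangles lie at the lower edge of peaks of like strength.

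Mitochondrial DNA supplied 4 tested peaks, each below 0 with changes between -0.28 and -0.25 and unadjusted p between 0.079 and 0.146. RNA polymerase II does not transcribe this genome. The 4 peaks made up 0.112%, 0.310% and 0.576% of the summed values in SH (lowest, median, highest), against 0.181%, 0.341% and 0.674% in GH. The share in CS was 0.112% to 0.154% in SH and 0.181% to 0.258% in GH, which did not overlap. In each of the mutant genotypes the SH and GH shares overlapped. With CS left out, the changes lay between -0.17 and -0.12. The part of mitochondrial reads in the other results was not tested.

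Among strong peaks above 0, the changes ran up to 0.16. After Sgs3 and CG7512 came ss, the gene of the bHLH-PAS factor spineless, with 256 ± 29 in SH and 231 ± 27 in GH (0.15, interval 0.04 to 0.27), above 0 in each genotype. Next came the peak over Gba1b, CG10301, CG10300 and nau (0.14) and that over asRNA:CR46107, CG11843 and Sirt7 (0.14). A peak in Oamb, an octopamine receptor gene, followed, and held 216, 235 and 281 in SH, against 179, 216 and 245 in GH. None of the 15 SH libraries lay below the GH median there, and the change was 0.14 (interval 0.04 to 0.23, p = 0.0077, adjusted p = 0.9997, limma, n = 15 each). The strongest Oamb peak had a change of 0.00. These strong peaks were chosen after their values were seen.

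In 33 gene lists, 761 genes had a tested peak, and 0 were called. Of their strongest peaks 10 were higher and 3 lower at an unadjusted p under 0.05, beside 1.29% and 0.809% of all genes. The 95% interval lay within 0.25 of 0 for 686 of them and within 0.5 for 757. List medians ran between -0.06 and 0.03, with 0.00 for all genes. Transcription machinery had 4 of 30 members at an unadjusted p under 0.05, the Mediator gene MED1 with 353 ± 33 in SH and 324 ± 28 in GH (0.12), CycK (0.13), Taf1 (0.09) and Cdk8 (-0.09). The peaks of MED1 and CycK also lie over other genes, and MED1 is above 0 in each genotype. Of 31 respiratory chain genes, ATPsynO (0.11) and SdhC (0.09) were at an unadjusted p under 0.05. Among 46 axon guidance and adhesion genes these were side (0.09) and Fas2 (0.13), a neural cell adhesion gene with 132 ± 15 in SH and 121 ± 16 in GH. Of 23 stress genes it was Hsp27, a small heat shock protein gene, with 147 ± 24 in SH and 164 ± 26 in GH (-0.16). The adjusted p was 0.9997 for each in limma.

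The strongest peak of fru had a change of 0.04 (interval -0.22 to 0.31) and that of dsx 0.03 (-0.06 to 0.12). By each gene's strongest peak, 0 of 17 sex determination genes had an unadjusted p under 0.05. Over all 102 peaks of that list, 6 were lower at that threshold (5.88%, beside 1.87% of all peaks) and 2 were higher. Of 17 clock genes, CkIIalpha, a kinase subunit gene that acts on the clock protein PER, had 155 ± 24 in SH and 171 ± 28 in GH (-0.14, unadjusted p = 0.094), and Clk, a clock transcription factor gene, -0.10 (unadjusted p = 0.097), each with an adjusted p of 0.9997 in limma. Of 33 neuropeptide genes, the peak shared by FMRFa, Etf-QO and Mef2 was the 1 with an unadjusted p under 0.05 (0.08). Monoamine genes had 0 of 29, with ple, the tyrosine hydroxylase gene of dopamine synthesis, at -0.06. Juvenile hormone genes had 0 of 13, chromatin regulators 0 of 33 and odorant and taste receptor and binding protein genes 0 of 31. Among markers of cell types at an unadjusted p under 0.05, glia had 0 of 10, photoreceptors 0 of 6, fat body 0 of 10, hemocytes 0 of 7, trachea 0 of 6 and neurons 0 of 8. Muscle had 1 of 12, Zasp66 (0.12). Those are counts of each gene's strongest peak. Over all their peaks, 8 of 63 were lower on neuronal markers and 1 of 13 on fat body markers, and 0 on the other 5 marker lists, while 1 of 63 was higher on neuronal and 2 of 54 on muscle markers.

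**Figure D5:**
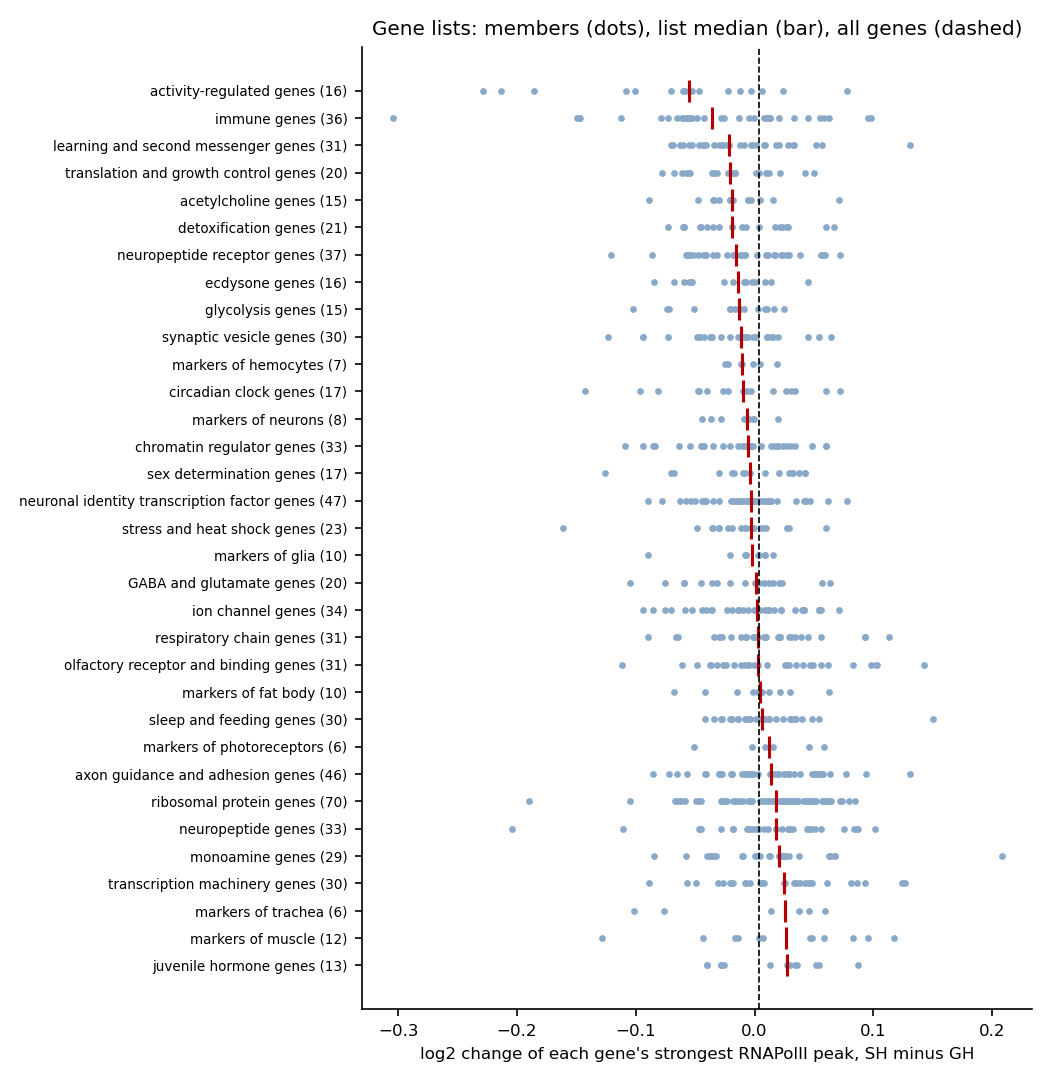
Log2 change (SH minus GH) of each gene's strongest RNAPolII peak in 33 gene lists, with the number of members with a tested peak in brackets. Dots are genes, red bars list medians and the dashed line the median over all genes. The list medians lie between -0.06 and 0.03, with activity-regulated genes lowest and juvenile hormone genes highest.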

How the data were processed

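The deposited tables hold 1 signal value per peak and library, which the authors made by dividing reads per peak by 1 size factor per library, as the values themselves show in 28 RNAPolII columns. Per the submitters' processing notes, the tools were Bowtie2, Trim Galore, DESeq2, MACS2 and ChIPseeker, with no versions. Genome build: not given in the sources used here. Peak coordinates are those of the files, and gene names come from overlap with RefSeq gene spans, so a peak over several genes carries all their names. Whole reads could not be recovered for CS SH 2 and Or67dmut SH 3.

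Peaks with a mean of at least 10 were tested on log2(value + 1) with limma 3.58.1 in R 4.3.3 (lmFit, eBayes with a mean trend, two-sided, Benjamini-Hochberg over all tested peaks), with genotype as a fixed block. The interaction with genotype was fitted in the same way. Count tests on recovered reads used edgeR 4.0.16 and DESeq2 1.42.0. Fold changes of low peaks are understated by the pseudocount of 1. The labels call the 3 libraries of a group biological replicates, and p-values measure the spread between these libraries. The library measures were tested with 100000 permutations within genotype.

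Per direction, the 10 peaks over a gene with the lowest p were named, as were the 6 with the lowest interaction p and the leading members of each list, by each gene's strongest peak. Where other peaks are named, they were chosen after their values were seen. The members and lists were chosen with earlier results of these data known. The steps were tested on simulated data.

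Alternatives chosen after seeing the data were sums over all peaks of a gene, the fit on 28 libraries, array weights for H3K4me3, and counts over the activity-regulated genes by setting.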

Additional observations from a re-analysis of the deposited data

How the results depend on the processing

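The pooled RNAPolII comparison called 0 peaks under every alternative run, which covered scaling, filters, array weights, each genotype left out, each library left out and the count tests. Peaks at an unadjusted p under 0.05 numbered 726, and 412 with a minimum mean of 50, 1038 without Or47bmut, and between 659 and 969 with each library left out in turn. The interaction also called 0 peaks throughout, with 609 at an unadjusted p under 0.05, 1337 without the 3 libraries that stood apart, and 543 to 770 with each library left out. The cause was not tested. The refits followed 37 peaks: those of lowest p in each direction, the strong peaks with the largest changes and chosen peaks of sr, CG14186 and CG46385. Other named peaks were not followed. The 37 peaks did not pass in any refit, and kept their direction in 1836 of them. The exception was 1 mitochondrial peak, with a change of 0 under quantile normalization, which sets it equal in every library because it is the highest peak in all 30.

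H3K4me3 gave 0 calls, but 4 with quantile normalization, 3 with spread as a covariate and 1 with the replicate block (CG46385, adjusted p = 0.031 in limma), all lower in SH, and 0 with each library left out. The cause was not tested. The replicate block joined 1 SH and 1 GH library of the same genotype and number, in 15 blocks. With it RNAPolII gave 0 calls, and 928 peaks at an unadjusted p under 0.05. Deviations of same-numbered libraries correlated between -0.044 and 0.407 for RNAPolII, over 0.1 in 4 of 15 pairs, and between -0.007 and 0.317 for H3K4me3, over 0.1 in 7 of 15. The own number correlated best in 11 and 9 of the 15 pairs, each set against the better of the other numbers. For RNAPolII, r was 0.32 and 0.41 in Or47bmut pairs 2 and 3. Since not every pair was over 0.1, the numbers were not taken to pair samples in the main fits. Whether same-numbered libraries shared a batch was not tested. Weak peaks limit precision: of those with means of 10 to 50, 76.0% had an interval within 0.5 of 0.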
